A study of Mus musculus with 18 samples.

Results

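The genes described here are the matrix metalloproteinases (Mmp), the ADAMTS proteinases (Adamts) and the tissue inhibitors of metalloproteinases (Timp), taken by gene symbol from 3 tables of mouse transcripts. Of 35310 genes listed in any table, 46 carried such a symbol, and 39 of them were listed in all 3 tables. Members with at least 1 FPKM (fragments scaled to transcript length and library size) in 3 libraries of a table are reported for that table. They numbered 18 of 43 in MCA205 cells, 18 of 45 in TC1 cells and 24 of 41 in TC1 tumours, 26 in any table and 14 in all of them.

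RNA was sequenced from 18 libraries in 6 groups of 3. In both cultured cell lines and in the TC1 tumours, libraries of wild-type genotype were compared with libraries labelled sgNAT10, a guide RNA against Nat10, whose product places N4-acetylcytidine on RNA. MCA205 is a chemically induced mouse fibrosarcoma line, and the labels call TC1 a fibrosarcoma line as well, although it is commonly described as lung epithelium transformed with papillomavirus oncogenes. The tumours grew from subcutaneously implanted TC1 cells of either genotype and were taken on day 8, so they hold host cells too. The series title concerns NAT10, a MYC, CDK2 and DNMT1 pathway and interferon responses, and does not mention the matrix proteases. No label gives the age or strain of the mice, says whether the sgNAT10 cells were 1 clone, or says that libraries of a group were separate cultures or animals, so p-values measure the spread between libraries.

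Matrix metalloproteinases are zinc enzymes that cut collagens, gelatin, proteoglycans and other proteins outside the cell, and most are made as inactive precursors. The ADAMTS enzymes are secreted relatives, some of which cut the proteoglycans aggrecan and versican and some of which trim procollagens. The Timp proteins bind the active sites of these enzymes, and TIMP2 also takes part in the activation of pro-MMP2 by the membrane protease MMP14. In tumours these genes are expressed by cancer cells, fibroblasts, macrophages and endothelial cells alike.

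Libraries held 51661298 to 78501790 estimated counts, and the 10 most abundant genes took 4.56% to 6.10% of a library. Nat10 transcript stood between 11.7 and 16.3 FPKM in all 18 libraries and was not called in any comparison (edgeR adjusted p of 0.984, 0.161 and 0.336), which does not check the labels. Lung epithelial markers summed to at most 1.47 FPKM in TC1 cells, with 2 of 7 at 0 or not listed in every library. General epithelial markers summed to 40.2 to 183 FPKM there and fibroblast markers to 1060 to 1580 FPKM. In MCA205 cells lung epithelial markers summed to 51.1 FPKM in wild type 1 and to at most 1.52 FPKM elsewhere. Liver and intestine markers were present in cultured cells: in TC1 cells liver markers summed to 665 to 1250 FPKM and intestine markers to 194 to 611 FPKM. In MCA205 cells intestine markers summed to 8.95 and 7.84 FPKM in wild type 1 and sgNAT10 2 and to 157 to 466 FPKM in the other libraries. Member calls that changed without those 2 libraries are given with the MCA205 results and with the difference between the lines.

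**Figure D1:**
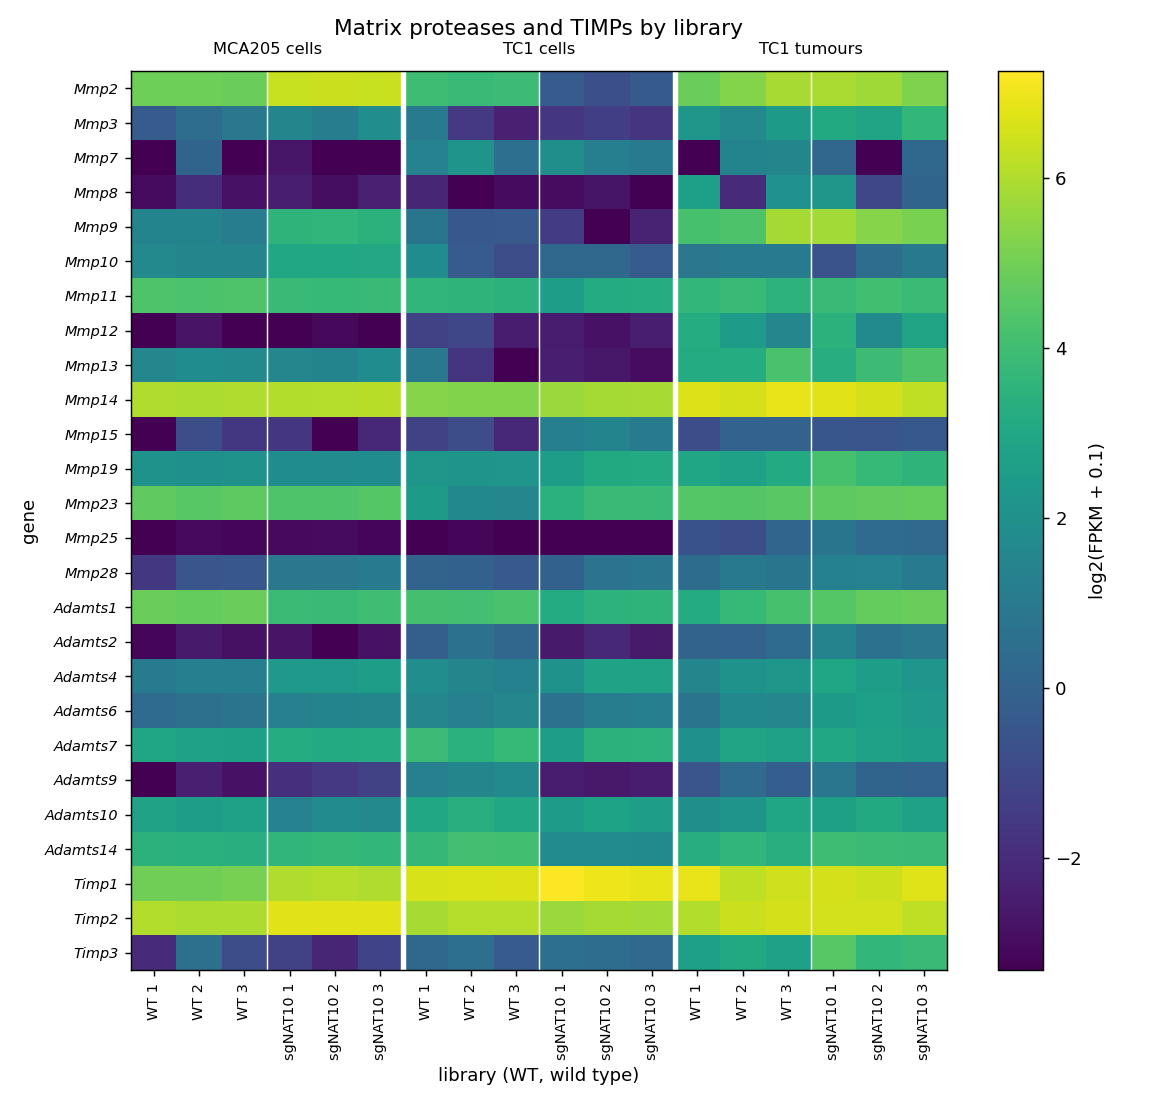
Level of the 26 reported members (rows) in the 18 libraries (columns), as log2(FPKM + 0.1); yellow is high and dark blue is low, and white lines part the tables and the genotypes. Mmp2 is the row that turns dark in the 3 sgNAT10 libraries of TC1 cells and bright in those of MCA205 cells.

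In sgNAT10 MCA205 cells both gelatinase genes and both expressed inhibitor genes rose, while the proteoglycan-cutting Adamts1 fell. Of the 18 reported members, edgeR called 12 higher and 5 lower. Over all 18101 genes tested 40.6% were called, 21.2% higher and 19.4% lower, and 51.6% of those with at least 1 FPKM in 3 libraries. The median log2 change was 0.61 over the members and -0.03 over all genes tested. Calls rest on edgeR's quasi-likelihood test with a threshold of 0.05 on the Benjamini-Hochberg adjusted p. The groups did not overlap in FPKM for 17 of the 18 members, against 52.6% of all genes tested.

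The gelatinase gene Mmp2, on chromosome 8 from 92827291 to 92853420 in mm10, stood at 30.3, 30.0 and 29.2 FPKM in wild type and at 82.5, 85.2 and 83.0 FPKM in sgNAT10. Its groups lay far apart, with a log2 change of 1.47 ± 0.03 (SE; edgeR adjusted p = 4.85e-07). The other gelatinase gene, Mmp9, on chromosome 2 from 164940780 to 164955850, went from 2.66, 2.63 and 2.16 FPKM to 11.6, 12.3 and 11.1 FPKM. Its change of 2.24 ± 0.09 was the largest among the reported members of this table (edgeR adjusted p = 7.65e-06).

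The stromelysin genes Mmp10 and Mmp3, whose products cut many matrix proteins and activate other proenzymes, were higher as well. Mmp10 was at 3.09, 2.78 and 2.74 FPKM in wild type and 7.82, 7.96 and 8.16 FPKM in sgNAT10, a log2 change of 1.48 ± 0.10 (edgeR adjusted p = 5.08e-05). For Mmp3 the levels were 0.743, 1.28 and 1.81 FPKM against 2.76, 2.10 and 3.53 FPKM. This smaller gap gave 1.13 ± 0.36 with an edgeR adjusted p of 0.0420, and 5 of the 6 fits that left out 1 library lost the call. Mmp28, which encodes epilysin, rose from 0.230, 0.594 and 0.623 FPKM to 1.74, 1.72 and 2.00 FPKM (log2 change 1.93 ± 0.33, edgeR adjusted p = 0.00352), and it passed the level minimum through the sgNAT10 group alone.

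Among the ADAMTS genes Adamts4, which encodes an aggrecanase, rose from 1.89, 2.24 and 2.27 FPKM to 5.14, 5.04 and 5.84 FPKM, with no overlap and a log2 change of 1.33 ± 0.09 (edgeR adjusted p = 6.63e-05). Adamts1, another aggrecan- and versican-cutting enzyme, moved the opposite way, from 28.8, 27.0 and 29.7 FPKM to 14.6, 14.4 and 16.2 FPKM. It fell by 0.93 on the log2 scale (SE 0.05; edgeR adjusted p = 3.37e-05). Adamts10, whose product acts on fibrillin microfibrils, was at 6.67, 5.95 and 6.61 FPKM against 2.52, 3.34 and 3.08 FPKM, a log2 change of -1.14 ± 0.13 (edgeR adjusted p = 0.000486). These fallen genes kept their calls in every alternative run for this table.

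Adamts6 rose from 1.21, 1.38 and 1.60 FPKM to 2.35, 2.66 and 2.82 FPKM (0.97 ± 0.09, edgeR adjusted p = 0.000264). Transcripts annotated as protein-coding took only 15.0 ± 19.0% of its wild-type counts (SD, n = 3), and with those transcripts alone the call was lost at an adjusted p of 0.204. Smaller changes were called for Adamts7, from 6.73 ± 0.53 to 8.97 ± 0.35 FPKM, and for the procollagen N-proteinase gene Adamts14, from 10.6 ± 0.45 to 12.8 ± 0.47 FPKM (SD, n = 3).

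The inhibitor genes rose with the gelatinases. Timp1, on chromosome X from 20870166 to 20874735, went from 30.7, 31.0 and 33.8 FPKM to 63.6, 67.2 and 64.1 FPKM (log2 change 1.03 ± 0.05, edgeR adjusted p = 1.90e-05). Timp2, on chromosome 11 from 118301069 to 118355740, went from 64.7, 62.7 and 61.7 FPKM to 108, 111 and 111 FPKM (0.81 ± 0.03, edgeR adjusted p = 7.05e-06). Both separations were complete. Timp1 lies within the span of Syn1 on the opposite strand, and Timp2 shares part of its span with Cep295nl on the same strand. No strand setting is given in the sources used here and overlap of exons was not examined. How reads of such pairs were assigned is therefore not known. Timp3 stayed below the level minimum, at 0.118 to 1.39 FPKM, and Timp4 at up to 0.203 FPKM.

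Most of the remaining metalloproteinase genes of MCA205 cells changed little. Mmp14, the membrane protease gene and the most abundant Mmp gene by FPKM in wild-type cells, stood at 63.1 ± 0.55 and 67.7 ± 2.61 FPKM (0.11 ± 0.03, edgeR adjusted p = 0.0266). Mmp11 fell from 19.9 ± 0.91 to 13.7 ± 0.27 FPKM (edgeR adjusted p = 0.000401). Mmp23 fell from 24.1 ± 1.22 to 20.8 ± 0.86 FPKM and Mmp19 from 4.10 ± 0.19 to 3.44 ± 0.06 FPKM, with edgeR adjusted p of 0.0106 and 0.0357. The calls for Mmp14, Mmp19 and Mmp23 were lost without wild type 1 and sgNAT10 2 together, where the adjusted p were 0.0703, 0.238 and 0.0902. Over all 15 alternatives run for this table, the Mmp14 call was lost in 8, that of Mmp19 in 7 and that of Mmp23 in 1. Mmp13, a collagenase gene, was the only reported member not called, with 3.20 ± 0.28 and 2.98 ± 0.39 FPKM (adjusted p = 0.593). Of 12 members that were tested although below the level minimum, 1 was called, the interstitial collagenase gene Mmp1b, with 0 counts in each wild-type library and 18, 48 and 32 in the sgNAT10 libraries. Fibroblast markers in MCA205 cells had 4 of 9 higher and 2 lower, with sums of 578 to 587 FPKM in wild type and 855 to 870 FPKM in sgNAT10, and their part in these results was not tested.

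**Figure D2:**
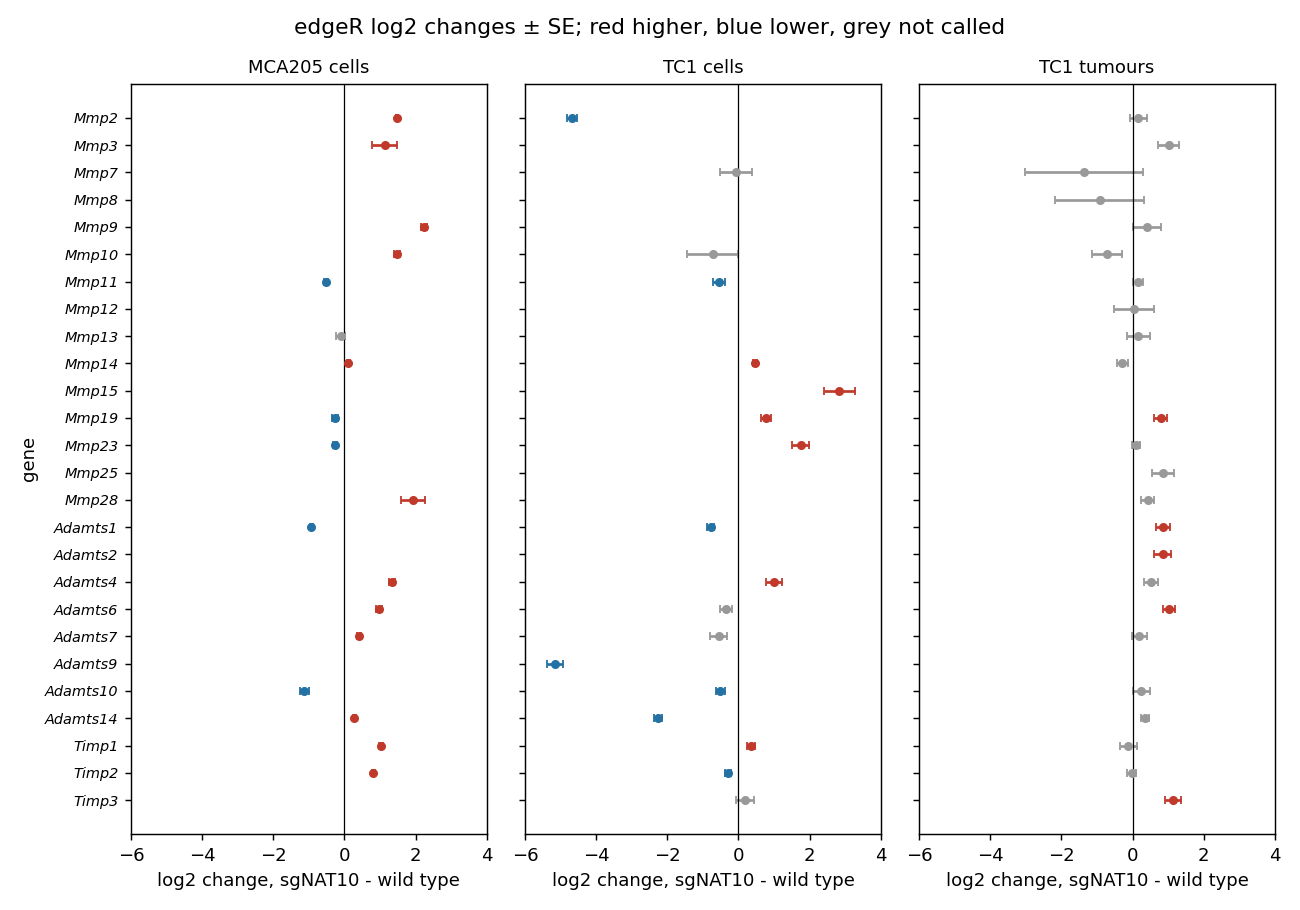
Log2 change from wild type to sgNAT10 with its standard error, as edgeR fitted it, for each reported member in the 3 comparisons; red points were called higher, blue points lower and grey points not called. Mmp2 is at 1.47 in MCA205 cells, -4.69 in TC1 cells and 0.16 in the tumours.

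In TC1 cells the same gelatinase gene went the other way: Mmp2 nearly vanished from the sgNAT10 libraries, together with Adamts9 and much of Adamts14, while Mmp15 and Mmp23 rose. Of 18 reported members edgeR called 6 higher and 7 lower. Over all 18823 genes tested 37.9% were called, 15.9% higher and 22.0% lower, and 47.0% of those with at least 1 FPKM in 3 libraries. The median log2 change was -0.32 over the members and -0.08 over all genes tested. Groups did not overlap for 14 of the 18 members, against 50.8% of all genes tested. Mmp2 and Adamts9 passed the level minimum through the wild-type group alone and Mmp15 through the sgNAT10 group alone.

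Mmp2 was at 15.4, 14.4 and 15.0 FPKM in wild-type TC1 cells and at 0.752, 0.498 and 0.703 FPKM in sgNAT10 cells, a log2 change of -4.69 ± 0.14 (edgeR adjusted p = 8.18e-06). Adamts9, on chromosome 6 from 92772699 to 92943492, encodes a proteoglycan-cutting enzyme and had 2.35, 2.73 and 3.12 FPKM against 0.0802, 0.0654 and 0.0776 FPKM. Every sgNAT10 library lay far below every wild-type library, with a log2 change of -5.15 ± 0.22 (edgeR adjusted p = 2.07e-05). Adamts14, on chromosome 10 from 61197112 to 61273438, fell from 13.0, 17.2 and 16.4 FPKM to 3.38, 3.37 and 3.28 FPKM (-2.26 ± 0.12, edgeR adjusted p = 3.77e-05). These 3 falls kept their calls in every alternative run for this table.

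Both Adamts14 and Adamts9 start in CpG-rich sequence, and their promoter windows are shown as those of the reported ADAMTS genes with the largest falls in TC1 cells. A window runs from 250 bases before to 50 bases after the start of the gene in RefSeq on GRCm38.p6, and CG pairs are in capitals. Adamts14 (chr10:61273370-61273669, minus strand) holds 44 CG pairs and Adamts9 (chr6:92943485-92943784, minus strand) 25. The median was 13.5 over the 32 members with a window and 8 over 27018 genes. A gene with several windows of this length was counted once, by the window with the most CG pairs. Such sequence was not limited to genes that fell: Mmp15 and Mmp23 rose in TC1 cells. Mmp15 holds 22 CG pairs, and the windows of Mmp23 hold 23 and 19. Adamts2, which fell there below the level minimum, holds 41. Adamts3, at most 0.014 FPKM in TC1 cells, holds 41 as well. Methylation was not measured in these libraries.
Adamts14: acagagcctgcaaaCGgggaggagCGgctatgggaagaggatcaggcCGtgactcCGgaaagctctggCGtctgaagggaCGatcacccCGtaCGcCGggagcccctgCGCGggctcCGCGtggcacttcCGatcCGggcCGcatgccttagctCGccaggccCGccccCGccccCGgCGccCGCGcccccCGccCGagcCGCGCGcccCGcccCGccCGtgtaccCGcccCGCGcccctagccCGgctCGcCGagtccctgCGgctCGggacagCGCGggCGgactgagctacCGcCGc
Adamts9: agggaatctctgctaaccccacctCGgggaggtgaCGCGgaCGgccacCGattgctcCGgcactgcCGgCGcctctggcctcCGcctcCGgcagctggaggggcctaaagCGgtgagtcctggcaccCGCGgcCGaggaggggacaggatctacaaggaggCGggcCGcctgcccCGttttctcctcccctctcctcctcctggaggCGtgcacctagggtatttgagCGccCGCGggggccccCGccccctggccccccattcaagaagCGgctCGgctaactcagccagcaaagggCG

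Adamts1 fell in TC1 cells too, from 17.5, 17.0 and 18.3 FPKM to 9.01, 11.3 and 11.5 FPKM (-0.78 ± 0.09, edgeR adjusted p = 0.000934). The groups did not overlap. Adamts10 went from 8.05, 9.85 and 8.03 FPKM to 5.55, 6.84 and 5.96 FPKM (-0.51 ± 0.12, edgeR adjusted p = 0.0143). The Adamts10 call was lost in 5 of 14 alternatives. Its direction turned when only transcripts annotated as protein-coding were counted, at 0.26 with an adjusted p of 0.634. Mmp11, which encodes stromelysin-3, was at 12.5, 11.5 and 11.1 FPKM against 5.96, 8.998 and 9.35 FPKM (edgeR adjusted p = 0.0394). That call was lost in 10 of 14 alternatives, among them RLE size factors at an adjusted p of 0.0670.

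The rises in TC1 cells included both membrane-bound and secreted proteases. Mmp15, a membrane-type metalloproteinase gene, stood at 0.327, 0.458 and 0.125 FPKM in wild type and 2.30, 2.62 and 2.04 FPKM in sgNAT10 (2.84 ± 0.44, edgeR adjusted p = 0.00251). Mmp23, a small membrane-anchored family member, rose from 5.26, 2.96 and 2.92 FPKM to 10.8, 14.1 and 14.1 FPKM (1.75 ± 0.24, edgeR adjusted p = 0.00164). The lowest sgNAT10 library of both genes was well above the highest wild-type library.

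Adamts4 went from 3.53, 2.70 and 2.38 FPKM to 4.20, 6.77 and 6.73 FPKM (0.99 ± 0.22, edgeR adjusted p = 0.0123). Mmp19 was at 4.73, 4.38 and 4.47 FPKM against 6.04, 8.60 and 8.67 FPKM (0.77 ± 0.15, edgeR adjusted p = 0.00636). In both genes, as in Adamts7 and Mmp11, sgNAT10 1 lay below the other sgNAT10 libraries. Mmp14 rose from 39.97, 37.7 and 38.4 FPKM to 50.1, 56.7 and 58.5 FPKM (0.47 ± 0.07, edgeR adjusted p = 0.00186).

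Changes of the inhibitor genes in TC1 cells were small. Timp1, the most abundant member there, went from 97.5, 99.9 and 103 FPKM to 153, 125 and 118 FPKM (0.35 ± 0.11, edgeR adjusted p = 0.0398). Timp2 went from 58.6, 67.8 and 66.9 FPKM to 50.5, 57.0 and 55.7 FPKM (-0.29 ± 0.08, edgeR adjusted p = 0.0287). Neither pair of groups overlapped, but the call for Timp1 was lost without wild type 1 (adjusted p = 0.0616) or wild type 2 (adjusted p = 0.0961). The call for Timp2 was lost without any library except wild type 1, with adjusted p up to 0.222, and with RLE size factors (adjusted p = 0.0994) or DESeq2 (0.0933), in all in 10 of 14 alternatives. Timp3 was at 1.05 ± 0.32 and 1.26 ± 0.12 FPKM and was not called (adjusted p = 0.599).

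The other reported members of TC1 cells were not called. Mmp10 was at 3.39 FPKM in wild type 1 and at 0.724 and 0.458 FPKM in the other wild-type libraries, against 0.724 to 1.06 FPKM in sgNAT10. Wild type 1 was also the high library for 3 genes below the level minimum, Mmp3 at 2.00 FPKM, Mmp13 at 1.83 FPKM and Mmp9 at 1.63 FPKM, where the other wild-type libraries had at most 0.674 FPKM. Adamts7 had 13.1 ± 2.11 and 9.37 ± 3.08 FPKM (adjusted p = 0.114), Adamts6 2.68 ± 0.32 and 1.97 ± 0.44 FPKM (adjusted p = 0.152), and matrilysin gene Mmp7 2.72 ± 1.48 and 2.66 ± 0.92 FPKM (adjusted p = 0.922). Of 16 members tested below the level minimum, Adamts2, Adamts5 and Mmp16 were called lower and Mmp1a higher, the last from 0 counts in each wild-type library to 13, 13 and 11. Adamts2, another procollagen N-proteinase gene, went from 0.826, 1.47 and 1.02 FPKM to 0.0695, 0.131 and 0.0681 FPKM. Fibroblast markers moved with these falls, 5 of 9 being lower and 0 higher, with sums of 1340 to 1580 FPKM in wild type and 1060 to 1100 FPKM in sgNAT10, and their part in the result was not tested. Of 11 macrophage markers 4 were higher, with sums of 46.1 to 53.1 FPKM in wild type and 75.1 to 138 FPKM in sgNAT10, and their part was not tested either.

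**Figure D3:**
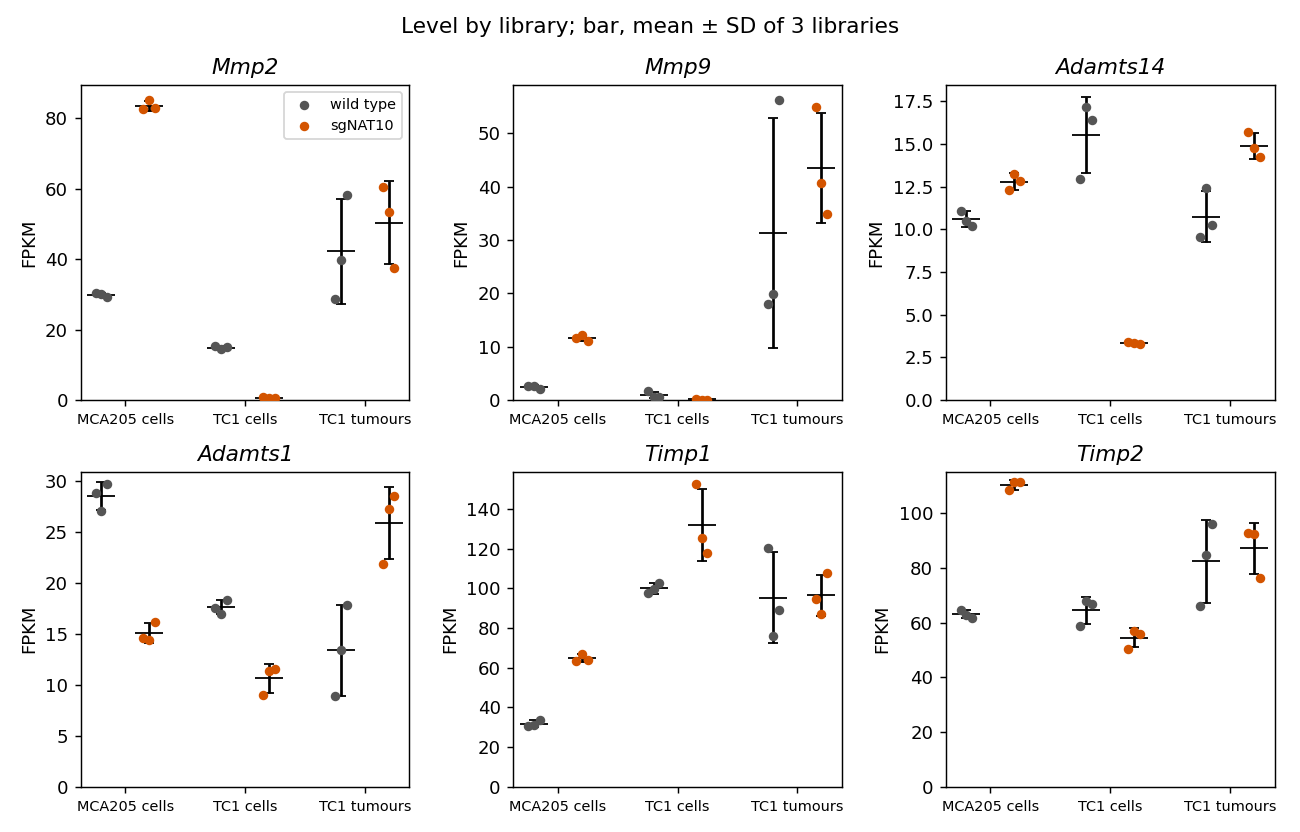
FPKM of 6 members in every library, wild type in grey and sgNAT10 in orange, with bars for the mean and SD of 3 libraries; each panel has its own linear axis starting at 0. Mmp2 and Timp2 rise in MCA205 cells and are lower in sgNAT10 TC1 cells, where the small Timp2 change lost its call in 10 of 14 alternatives, and Adamts1 falls in both lines and rises in the tumours.

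In day 8 tumours from TC1 cells, 5 reported members rose and 0 fell by edgeR: the inhibitor gene Timp3, the ADAMTS genes Adamts6, Adamts1 and Adamts2, and Mmp19. Of 24 reported members that is 20.8%, beside 17.4% of the 19244 genes tested and 20.7% of those with at least 1 FPKM in 3 libraries, so the share called was near the background. By direction, 7.65% of the tested genes were higher and 9.72% lower. The median log2 change was 0.22 over the members and 0.02 over all genes tested. Groups did not overlap for 10 of the 24 members, against 40.4% of all genes tested. DESeq2 and limma-trend with either pseudocount also called 0 reported members lower, and edgeR gave 0 lower at an unadjusted p under 0.05. None of the 5 calls held in all 14 alternatives run for this table.

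Timp3, whose product stays bound to the matrix and inhibits ADAMTS enzymes as well, is on chromosome 10 from 86300372 to 86349506, within Syn3 on the opposite strand. It stood at 6.19, 8.38 and 6.45 FPKM in wild-type tumours and 22.9, 12.8 and 14.2 FPKM in sgNAT10 tumours (1.14 ± 0.24, edgeR adjusted p = 0.0206). The groups were separate, with sgNAT10 1 the highest. Without wild type 2 or sgNAT10 3 the adjusted p was 0.0571 and 0.0549, at log2 changes of 1.25 and 1.23.

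Adamts6 went from 1.58, 2.98 and 2.86 FPKM to 5.29, 6.24 and 5.20 FPKM (1.03 ± 0.17, edgeR adjusted p = 0.0121), and its call was lost without sgNAT10 2 at 0.97 and an adjusted p of 0.0644. Adamts1 rose from 8.95, 13.4 and 17.8 FPKM to 21.8, 27.2 and 28.6 FPKM (0.85 ± 0.20, edgeR adjusted p = 0.0288). Wild type 1 was the lowest library of both genes. Adamts2 went from 0.929, 0.908 and 1.18 FPKM to 2.52, 1.48 and 1.80 FPKM (0.85 ± 0.24, edgeR adjusted p = 0.0478), and Mmp19 from 7.36, 6.63 and 8.79 FPKM to 18.1, 13.4 and 11.6 FPKM (0.79 ± 0.18, edgeR adjusted p = 0.0267). The Adamts1 call was lost without wild type 2 or any sgNAT10 library (adjusted p of 0.0594 to 0.107), as was that of Mmp19 (0.0542 to 0.0874), and that of Adamts2 without any 1 of the 6 libraries (0.0557 to 0.145).

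Levels of other cell types moved with these tumour groups. Of 8 endothelial markers 7 were higher in sgNAT10 tumours, with sums of 33.0 to 44.2 FPKM in wild type and 64.3 to 75.6 FPKM in sgNAT10, and 6 of 8 skeletal muscle markers were higher, with sums of 26.6 to 32.4 and 112 to 177 FPKM. Liver markers summed to 0.102, 56.9 and 227 FPKM in wild type and 516 to 585 FPKM in sgNAT10, with 0 of 11 called. Macrophage markers summed to 1250 to 1770 and 1190 to 1360 FPKM, with 2 of 11 lower, and fibroblast markers to 1490 to 1980 and 1770 to 2020 FPKM, with 2 of 9 higher. Their part in the tumour results was not tested, and fewer cells of a type and less RNA per cell cannot be told apart in bulk tissue.

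The gelatinase genes overlapped between the tumour groups. Mmp2 was at 28.8, 39.6 and 58.1 FPKM in wild type and 60.4, 53.3 and 37.4 FPKM in sgNAT10 (0.16 ± 0.23, edgeR adjusted p = 0.655). Mmp9 was at 17.9, 19.8 and 56.3 FPKM against 55.0, 40.7 and 34.8 FPKM (0.40 ± 0.40, adjusted p = 0.501). In wild-type tumours the highest library for both was wild type 3, which also held the highest macrophage sum. Wild type 1 was the lowest for both, although its macrophage sum of 1310 FPKM was above the 1250 FPKM of wild type 2. In sgNAT10 tumours, sgNAT10 1 was highest for both genes and for the macrophage sum. A macrophage source of these transcripts was not tested. Timp1, at 95.3 ± 22.9 and 96.5 ± 10.5 FPKM, and Timp2, at 82.3 ± 15.1 and 87.1 ± 9.44 FPKM, were not called (adjusted p of 0.745 and 0.927), and Timp4 was at most 0.0215 FPKM.

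Another 5 tumour members had groups that did not overlap without a call at the threshold: Mmp3, Mmp23, Mmp25, Mmp28 and Adamts14. Mmp3 came nearest, with 4.69, 3.05 and 5.27 FPKM against 8.60, 7.06 and 12.7 FPKM (1.01 ± 0.30, edgeR adjusted p = 0.0586), and it was called by DESeq2 and by limma-trend with either pseudocount. Adamts14 had 10.8 ± 1.51 and 14.9 ± 0.75 FPKM (adjusted p = 0.0697) and Mmp25, a leukocyte membrane-type enzyme gene, 0.678 ± 0.286 and 1.31 ± 0.271 FPKM (adjusted p = 0.0995). The remaining members overlapped, among them Mmp14 at 105 ± 12.1 and 94.1 ± 17.4 FPKM, the macrophage elastase gene Mmp12 at 5.85 ± 3.24 and 7.15 ± 3.97 FPKM, and Mmp13 at 12.3 ± 5.36 and 14.7 ± 4.98 FPKM. The neutrophil collagenase gene Mmp8 ranged from 0.148 to 6.18 FPKM in wild type and from 0.376 to 4.76 FPKM in sgNAT10. It was highest in wild type 1, the library with the highest neutrophil marker sum (117 FPKM, against 6.12 to 44.5 FPKM in the other tumours). At the close sums of 25.2 and 24.0 FPKM in wild type 3 and sgNAT10 3, Mmp8 was at 3.97 and 0.952 FPKM. A neutrophil source was not tested.

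The difference between the sgNAT10 effects of the 2 cell lines was tested as an interaction over 12 libraries, with either effect taken inside 1 table. Of 22 members reported in either line, the effect in MCA205 cells was higher than in TC1 cells for 8 and lower for 4. Of the 20272 genes tested 36.0% differed, 19.2% higher and 16.7% lower. A stricter expression filter left 15458 genes in edgeR, of which 48.4% differed, beside 54.5% of the members in the main fit. The share of members is therefore not read as an excess. Mmp2 had the smallest adjusted p, with a difference of 6.11 ± 0.13 on the log2 scale (edgeR adjusted p = 7.87e-10). Adamts14 followed with 2.48 ± 0.13 (adjusted p = 4.43e-07) and Timp2 with 1.05 ± 0.10 (adjusted p = 1.60e-05), and inside the tables these 3 genes were called higher in MCA205 and lower in TC1 cells. The Timp2 call in TC1 cells was lost in 10 of the 14 alternatives run for that table. Mmp23 and Mmp19 had the reverse calls, lower in MCA205 and higher in TC1 cells, with differences of -2.06 ± 0.26 (adjusted p = 0.000119) and -1.10 ± 0.18 (adjusted p = 0.000763). The Mmp19 call in MCA205 cells was lost in 7 of the 15 alternatives run for that table, and the Mmp23 call in 1. Adamts6 differed by 1.26 ± 0.20 (adjusted p = 0.000689). Adamts9 differed by 7.73 ± 1.19 (adjusted p = 0.000482), but its level in MCA205 cells was only 0 to 0.309 FPKM, on 0, 42 and 17 counts in wild type and 80, 159 and 157 in sgNAT10. Mmp9 differed by 5.30 ± 1.04 (edgeR adjusted p = 0.00229), on at most 1.63 FPKM in TC1 cells. Without MCA205 wild type 1 and sgNAT10 2 together, the call for Adamts7 was lost (difference 0.91, adjusted p = 0.0299 with all libraries and 0.0575 without these), and Mmp15 and Timp3 were called lower in MCA205 cells (edgeR adjusted p of 0.00315 and 0.0399, where all libraries gave 0.148 and 0.169).

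Tumours and cultured TC1 cells were compared in the same way, and this comparison shares the TC1 cell libraries with the preceding one. Of 26 members reported in either table, the effect was higher in tumours for 7 and lower for 3. Of the 20706 genes tested 28.2% differed, 13.1% higher and 15.1% lower. With the stricter filter 34.6% of 16057 genes differed, beside 38.5% of the members in the main fit, so no excess is read here either. Mmp2, Adamts9 and Adamts14, which fell in culture, were not called in tumours, and their effects differed by 4.79 ± 0.30, 5.59 ± 0.36 and 2.55 ± 0.17 (edgeR adjusted p of 3.16e-06, 3.55e-06 and 3.62e-06). Adamts2, at 4.27 ± 0.45, and Adamts1, at 1.57 ± 0.24, fell in culture and rose in tumours (adjusted p of 6.42e-05 and 0.000684). For Mmp23 and Mmp15, which rose in culture, the effect was lower in tumours, with differences of -1.70 ± 0.27 and -3.28 ± 0.53 (adjusted p of 0.000926 and 0.000999), and Adamts6 differed by 1.31 ± 0.25 (adjusted p = 0.00264). Tumour libraries hold host cells as well as TC1 cells, and the share of each gene that came from the implanted cells was not measured.

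Among the 14 members reported in all 3 tables, Adamts4, Mmp14 and Timp1 were called higher in both cell lines and Adamts1, Adamts10 and Mmp11 lower in both. Of these, only Adamts1 kept its call in every alternative in both lines. Adamts14, Mmp2 and Timp2 were higher in MCA205 and lower in TC1 cells, and Mmp19 and Mmp23 the reverse. Of these, only Adamts14 and Mmp2 kept both calls in every alternative. Adamts6, Adamts7 and Mmp10 were called in MCA205 cells and not in TC1 cells. Summed over all its members, the Mmp family went from 152 ± 1.12 to 217 ± 4.12 FPKM in MCA205 cells, from 82.0 ± 8.32 to 92.7 ± 8.91 FPKM in TC1 cells and from 254 ± 52.5 to 283 ± 38.2 FPKM in tumours (SD, n = 3). The Adamts family went from 56.2 ± 1.54 to 48.3 ± 1.91 FPKM in MCA205 cells, from 66.1 ± 1.33 to 38.6 ± 6.78 FPKM in TC1 cells and from 44.6 ± 10.6 to 70.9 ± 1.90 FPKM in tumours. In MCA205 cells that fall came with Adamts1 and Adamts10, while the other 4 reported Adamts genes were called higher. The Timp sum went from 95.6 ± 0.36 to 175 ± 3.27 FPKM in MCA205 cells, from 166 ± 7.30 to 188 ± 15.3 FPKM in TC1 cells and from 185 ± 13.4 to 200 ± 9.38 FPKM in tumours.

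A run of 10 Mmp genes lies side by side on chromosome 9 between 7272514 and 7699585, in the order Mmp13, Mmp12, Mmp1b, Mmp3, Mmp1a, Mmp10, Mmp8, Mmp27, Mmp20 and Mmp7, and 6 of them were reported in at least 1 table. Promoter windows were found for 32 of the 46 members, and for all of the cluster. A gene was counted once, with a motif if any of its windows held it. The AP-1 motif, TGAGTCA or TGACTCA on both strands, occurred in 7 of the 10 cluster genes (70.0%). It occurred in 7 of the 32 members with a window (21.9%) and in 5.95% of all 27018 genes. The TATA motif, TATAAA on the gene's strand from position -40 to -20, occurred in 30.0% of the cluster, 12.5% of the members and 2.41% of all genes. The median number of CG pairs was 1.5 in the cluster. Shown are the promoters of the stromelysin genes Mmp10 (chr9:7502092-7502391) and Mmp3 (chr9:7445572-7445871), which rose in MCA205 cells, and of Mmp13 (chr9:7272264-7272563), which was not called there, all on the plus strand. Capitals mark the AP-1 motif, whose first base lies at position -63, -46 and -35, and in Mmp10 also the TATA motif. The windows of Mmp3 and Mmp13 hold TATAAA too, but nearer the given start than position -20, so it was neither counted nor marked. A match is a description of the sequence, and binding was not measured.
Mmp10: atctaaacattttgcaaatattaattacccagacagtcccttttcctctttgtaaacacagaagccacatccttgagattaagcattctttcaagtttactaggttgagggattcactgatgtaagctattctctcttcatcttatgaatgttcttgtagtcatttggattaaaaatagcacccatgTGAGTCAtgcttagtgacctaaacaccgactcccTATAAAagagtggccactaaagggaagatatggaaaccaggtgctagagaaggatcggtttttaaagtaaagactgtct
Mmp3: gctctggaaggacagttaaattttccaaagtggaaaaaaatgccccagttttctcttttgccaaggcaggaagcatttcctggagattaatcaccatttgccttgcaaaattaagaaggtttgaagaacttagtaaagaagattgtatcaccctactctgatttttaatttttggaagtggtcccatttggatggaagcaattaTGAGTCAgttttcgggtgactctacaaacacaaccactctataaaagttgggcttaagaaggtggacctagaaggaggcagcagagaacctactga
Mmp13: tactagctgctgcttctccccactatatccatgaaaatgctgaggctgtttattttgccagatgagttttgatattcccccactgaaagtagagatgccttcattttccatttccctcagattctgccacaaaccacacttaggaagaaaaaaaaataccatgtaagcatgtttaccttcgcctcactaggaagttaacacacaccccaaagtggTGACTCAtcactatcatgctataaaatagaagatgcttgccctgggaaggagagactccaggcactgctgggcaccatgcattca

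In MCA205 cells the called cluster genes all rose: Mmp10, Mmp3 and, below the level minimum, Mmp1b (edgeR adjusted p = 0.00286). Mmp13 at the first position was not called, and Mmp8, Mmp12, Mmp1a and Mmp27 stayed at or below 0.164 FPKM. Mmp7 was at 0.977 FPKM in wild type 2, the MCA205 library with the highest intestine marker sum (466 FPKM). It was at most 0.0562 FPKM in the other MCA205 libraries. In TC1 cells the cluster genes above the level minimum were Mmp10 and Mmp7, and neither was called by edgeR, DESeq2 or limma-trend. Mmp7 was highest in wild type 2 (4.3 FPKM) and lowest in wild type 3 (1.36 FPKM). These TC1 libraries also had the highest and lowest intestine marker sums, 611 and 194 FPKM. The other TC1 libraries ranked alike in both, except that wild type 1 and sgNAT10 1 changed places. An intestinal source of Mmp7 was not tested. Below the minimum Mmp1a was called higher there (edgeR adjusted p = 0.00603). In the tumours Mmp13, Mmp12, Mmp3, Mmp8, Mmp10 and Mmp7 were reported, and Mmp3 alone passed an unadjusted p of 0.05 in edgeR.

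**Figure D4:**
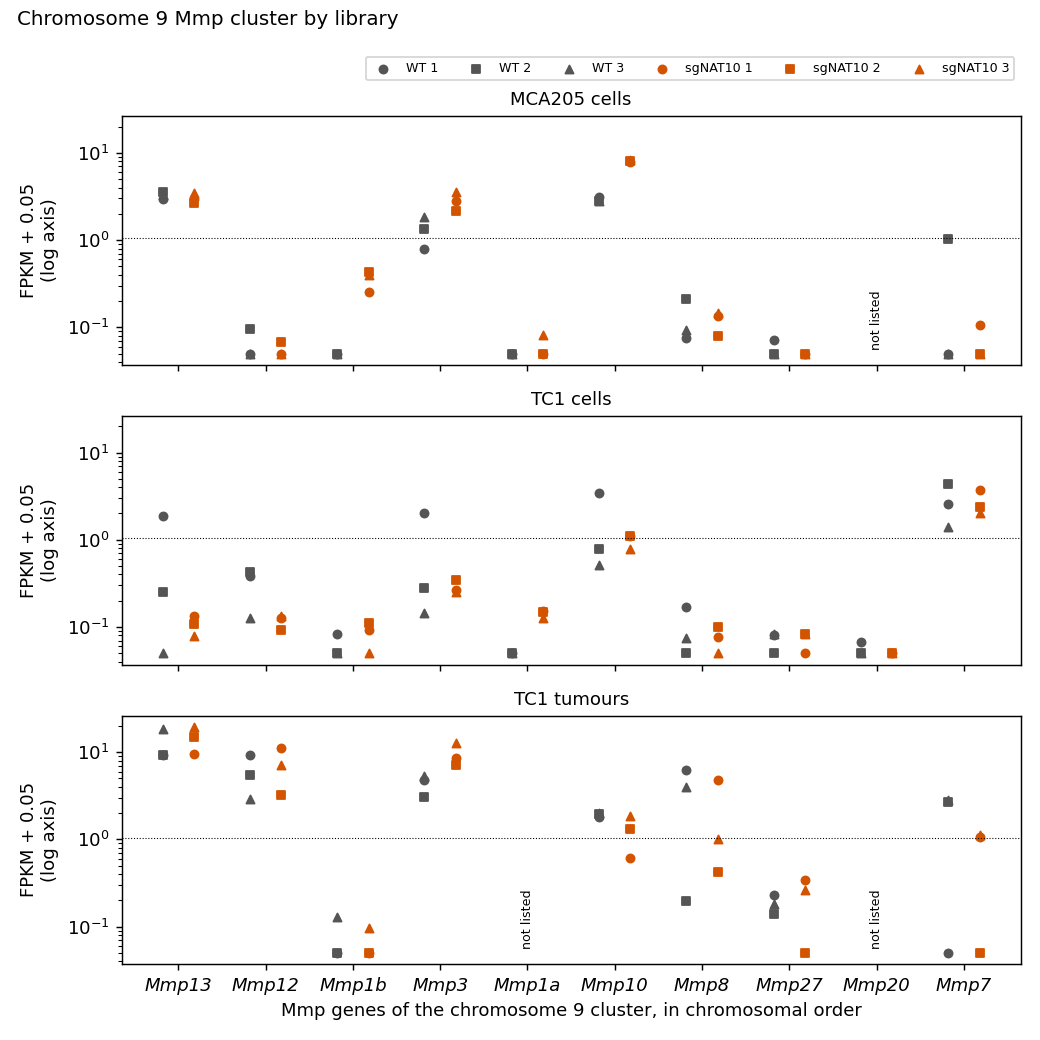
FPKM + 0.05 on a log axis for the 10 Mmp genes of the chromosome 9 cluster in each library, wild type in grey and sgNAT10 in orange; the dotted line marks the level minimum of 1 FPKM. Mmp10 in MCA205 cells separates the genotypes, and in TC1 cells wild type 1 (grey circle) lies above the other libraries for Mmp13, Mmp3 and Mmp10.

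Genes that act with these proteases were read from lists of related genes. The shares over all genes tested, to read beside each list count, were 21.2% higher and 19.4% lower in MCA205 cells, 15.9% and 22.0% in TC1 cells, and 7.65% and 9.72% in tumours. With lists this short, nothing particular to a list is read from its count. In MCA205 cells 5 of 15 AP-1 and ETS factor genes rose and 5 fell, where 40.6% of all genes were called in either direction. The AP-1 subunit gene Fos fell from 7.18 ± 1.70 to 0.567 ± 0.309 FPKM and Fosb from 4.42 ± 0.93 to 1.67 ± 0.14 FPKM (edgeR adjusted p of 0.00150 and 0.000481). Jun rose from 27.6 ± 1.29 to 67.7 ± 1.87 FPKM and Fosl1 from 61.7 ± 3.49 to 108 ± 5.23 FPKM, while Ets1 and Jund fell by 0.61 each on the log2 scale (edgeR adjusted p of 1.96e-06, 1.97e-05, 4.36e-05 and 0.000364). In TC1 cells 1 of 15 rose and 4 fell, against 37.9% of all genes called, with Jun at 111 ± 5.23 and 53.0 ± 9.50 FPKM, Batf3 at a log2 change of -1.78, Ets1 at -0.45, Fosl2 at -0.44 and Etv1 at 0.47. In tumours, where 17.4% of all genes were called, 1 of 16 rose, Etv1 at 1.23, and 3 fell, Etv4 at -0.76, Fosb at -1.67 and Fosl1, from 60.3 ± 23.1 to 24.2 ± 2.90 FPKM.

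The plasminogen system, whose protease plasmin can activate several pro-Mmp enzymes, had 5 of 11 genes higher and 1 lower in MCA205 cells, beside 21.2% and 19.4% of all genes. Serpinb2, an inhibitor of plasminogen activators, rose from 0.157 ± 0.046 to 10.99 ± 0.71 FPKM, and the tissue activator gene Plat from 5.60 ± 0.17 to 13.8 ± 0.88 FPKM. The urokinase gene Plau fell from 5.74 ± 0.42 to 2.43 ± 0.26 FPKM, and its receptor gene Plaur rose by 0.55 on the log2 scale. TC1 cells had 3 of 11 higher (Anxa2, Plaur and Serpine2) and 0 lower, beside 15.9% and 22.0%. Tumours, with 7.65% and 9.72% of all genes, had 2 of 11 higher, Serpine2 from 2.90 ± 1.04 to 6.85 ± 1.12 FPKM and Plgrkt, and 1 lower, Plau from 24.1 ± 5.58 to 14.9 ± 0.42 FPKM.

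Substrates, cell-surface regulators and other proteases completed the lists, against the same 40.6% of all genes called in MCA205 cells, 37.9% in TC1 cells and 17.4% in tumours. In MCA205 cells the proteoglycan gene Vcan, a substrate of several ADAMTS enzymes, rose from 4.66 ± 0.15 to 22.2 ± 1.12 FPKM, as did 1 other of the 4 hyalectan and link protein genes tested. The Mmp inhibitor gene Reck rose from 1.001 ± 0.082 to 2.16 ± 0.22 FPKM there, among 5 higher and 2 lower of 10 regulators. The cathepsin genes Ctsl, from 771 ± 16.1 to 1362 ± 42.2 FPKM, and Ctsb, from 109 ± 1.49 to 191 ± 3.49 FPKM, were among 5 higher and 1 lower of 10 other matrix-degrading protease genes. In TC1 cells the proprotein convertase gene Pcsk6 rose from 1.98 ± 0.20 to 8.31 ± 0.24 FPKM, among 4 higher and 1 lower of 12 regulators, and the serine protease gene Htra1 fell from 22.3 ± 7.35 to 3.21 ± 0.44 FPKM, among 1 higher and 3 lower of 11 other matrix-degrading protease genes. The sheddase gene Adam19 fell from 2.00 ± 0.59 to 0.128 ± 0.021 FPKM in TC1 cells, among 4 higher and 2 lower of 10 ADAM genes, and rose from 4.20 ± 0.20 to 7.06 ± 0.34 FPKM in MCA205 cells, among 4 higher and 0 lower of 8. The ADAMTS-like gene Adamtsl3 rose from 0.107 ± 0.030 to 4.24 ± 0.92 FPKM in TC1 cells, among 1 higher and 1 lower of 6. In tumours Tfpi2, a protease inhibitor gene, rose from 2.64 ± 0.88 to 7.93 ± 1.71 FPKM and the cathepsin K gene Ctsk from 3.69 ± 0.77 to 7.25 ± 0.998 FPKM, and Adam19 fell from 5.57 ± 0.75 to 3.52 ± 0.58 FPKM (edgeR adjusted p of 0.0188, 0.0468 and 0.0151). Their lists had 2 higher and 1 lower of 12 regulators, 2 higher and 0 lower of 11 other proteases, and 0 higher and 1 lower of 10 ADAM genes in tumours.

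The level minimum left out 20 of the 46 members in every table. Just below it were Timp3 and Mmp15 in MCA205 cells, whose third-highest libraries had 0.337 and 0.216 FPKM, Adamts5 and Mmp28 in TC1 cells at 0.980 and 0.926 FPKM, and Adamts9 and Adamts12 in tumours at 0.959 and 0.730 FPKM. Just above it were Mmp28 and Mmp3 in MCA205 cells at 1.72 and 2.10 FPKM, Mmp10 and Timp3 in TC1 cells at 1.05 and 1.29 FPKM, and Mmp7 and Mmp25 in tumours at 1.06 and 1.13 FPKM. Of the 20, Adamts5 reached 1.26 and 1.15 FPKM in wild type 2 and wild type 3 of TC1 cells, and Adamts12 reached 1.16 FPKM in 1 tumour library. The other 18 stayed at or below 0.407 FPKM in every library.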

How the data were processed

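RNA was measured in 18 mouse libraries, 3 for each of 6 groups. Per the submitters' processing notes, mm10, featureCounts, Bowtie2, Trim Galore and FastQC were used, with no version or role stated. Which program wrote the values is not given in the sources read. The 3 deposited tables list transcripts with estimated counts, which were already whole numbers in the authors' files, and with FPKM values that the authors scaled to transcript length and library size, per the file headers. Columns headed KO were taken as the libraries titled sgNAT10. 0 value columns were without a sample.

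Transcripts were summed per gene identifier. Each comparison used the 6 libraries of 1 table in edgeR 4.0.16 (R 4.3.3) quasi-likelihood tests with TMM factors, the default expression filter and Benjamini-Hochberg adjustment over all genes tested. Levels are means ± SD of summed FPKM. Differences of effects were interaction contrasts over 12 libraries, as the authors may have normalised each table apart. Libraries of a group were not copies of each other, since their chi-square per degree of freedom was at least 10.7. Replicate numbers do not pair the libraries by any label, so the fit has no block.

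Members, related gene lists, marker lists and tests were chosen with earlier results of these data known. Every member was counted. By rule, up to 8 called members in each direction were given by library. Mmp11, Mmp19 and Mmp23 in MCA205 cells are exceptions, printed as mean and SD. The reported inhibitors were named in each table. From each related list up to 4 called genes with the smallest p were taken, of which a selection is printed. Alternatives were RLE size factors, DESeq2 1.42.0, other filters, limma-trend 3.58.1 on log2(FPKM + 1) and log2(FPKM + 0.1), protein-coding transcripts alone, a replicate block and leaving out each library. Simulated data were used to test the fits. Overlapping genes and near-identical relatives rest on the authors' assignment of reads. Promoter sequences are RefSeq's, with the start given there. Python 3.11.15, pandas 2.3.3 and matplotlib 3.10.9 were used.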

Additional observations from a re-analysis of the deposited data

Results flagged for a closer look

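These members had sgNAT10 effects that differed between cell lines, or between tumours and cultured TC1 cells, by the interaction test in edgeR. All values are differences of log2 changes.

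Between MCA205 and TC1 cells the effect was higher in MCA205 cells for Adamts9 (7.73), Mmp2 (6.11), Mmp9 (5.30), Adamts14 (2.48), Adamts6 (1.26), Timp2 (1.05), Adamts7 (0.91) and Timp1 (0.62). It was lower in MCA205 cells for Mmp14 (-0.41), Adamts10 (-0.68), Mmp19 (-1.10) and Mmp23 (-2.06). Adamts10, Adamts6 and Adamts7 lost the call in at least 1 of 21 alternatives, and the other 9 kept it in all of them. Timp1 rose in both lines, by 1.03 and 0.35, and Mmp14 also rose in both, by 0.11 and 0.47, so their differences are of size and not of direction. Inside the tables, the Mmp14 call in MCA205 cells was lost in 8 of 15 alternatives and the Timp1 call in TC1 cells in 4 of 14.

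Between tumours and cultured TC1 cells the effect was higher in tumours for Adamts9 (5.59), Mmp2 (4.79), Adamts2 (4.27), Mmp9 (3.46), Adamts14 (2.55), Adamts1 (1.57) and Adamts6 (1.31). It was lower in tumours for Mmp14 (-0.82), Mmp23 (-1.70) and Mmp15 (-3.28). Of these only Mmp9 lost the call, in 3 of 20 alternatives: DESeq2 (adjusted p = 0.0505), and the fits without cultured wild type 1 (0.0526) or sgNAT10 3 (0.0526). Both comparisons use the TC1 cell libraries.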

How the results depend on the processing

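Over 1839 recomputed member values, 1700 kept their side of the threshold, 93 lost the call and 45 gained one. In 1 a call was lost with its direction reversed, Adamts10 in TC1 cells with protein-coding transcripts only (0.26, edgeR adjusted p = 0.634). The direction of values called in neither fit was not compared, so the 1700 can include changes of sign. The count of called members in tumours, 5, was 2 with no filter on low counts, 2 with a replicate block and 1 to 6 with 1 library left out. It was 1 without wild type 2, sgNAT10 2 or sgNAT10 3 and 2 without sgNAT10 1. The cause was not tested. In the other comparisons the count stayed within 1.5 times under every alternative run, with 14 to 16 of 17 in MCA205 cells, 9 to 11 of 13 in TC1 cells, 11 to 14 of 12 for the difference between lines and 9 to 13 of 10 for tumours against cells when 1 library was left out. With RLE size factors TC1 cells had 3389 higher and 3417 lower genes in all, where TMM gave 2991 and 4135. Correlations of same-numbered libraries ranged from -0.564 to 0.266, so the numbers were not read as pairs. Across numbers, MCA205 wild type 1 stood at 0.674 with sgNAT10 2 and at -0.517 with sgNAT10 3. Wild type 1 and sgNAT10 2 are the MCA205 libraries low in intestine markers. The main fit does not model what they share, and its source was not tested. The replicate block gave 14, 10, 2, 11 and 10 called members in the order of the report's comparisons, and 836 called genes in tumours where the fit without it gave 3343. Calls below the level minimum can rest on few counts, as for Mmp1a in TC1 cells, at 0 in each wild-type library against 13, 13 and 11.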
